A study of Mus musculus with 10 samples.

Results

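The leukocyte genes that remained measurable after CD45-positive cells had been removed from mouse lung tumors were followed here across 10 RNA sequencing libraries. The members are 39 named marker genes out of 39017 genes in the count table. They comprise 2 genes of all leukocytes, 9 neutrophil genes, 10 macrophage genes, 4 genes shared by myeloid cells, 7 T cell genes, 3 B cell genes and 4 genes of NK and cytotoxic cells. Of these, 38 were found by symbol, and Chil3 was found by its gene ID because the table lists it under the older symbol Chi3l3. After the filter on low counts 28 members could be tested, and the other 11 are given by their counts.

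Tumors were started in male C57BL/6 mice by an adenovirus, Ad5SPC-Cre, that expresses Cre recombinase from the surfactant protein C promoter, which directs recombination to surfactant-producing cells of the airspace. The 5 control tumors are called KP and the 5 tumors with homozygous floxed Slc2a1, which encodes the glucose transporter Glut1, are called KPG1. Both groups share the engineered KP background that gives rise to lung adenocarcinoma. The controls carry a heterozygous floxed Slc2a1 by their genotype label and are wild type by their description label, so the KP level may be that of cells with 1 or both copies. All tumors were taken 18 weeks and 6 days after initiation, dissociated and passed over anti-CD45 beads, and RNA came from the fraction that was not retained. The labels number the tumors but do not say which mouse each came from, so p-values measure the spread between these samples.

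CD45 is a membrane tyrosine phosphatase found on nearly all nucleated blood cells, and it is encoded by Ptprc. Neutrophils are short-lived cells of the innate response that fill their cytoplasm with the calcium-binding proteins S100a8 and S100a9 and leave the blood along gradients read by the chemokine receptor Cxcr2. Lung macrophages take up particles and dead cells, secrete the C1q subunits of complement and depend on the growth factor receptor Csf1r. T, B and NK cells are recognized by the subunits of their antigen receptors and by the contents of their cytotoxic granules.

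The libraries held 32427029 to 49534284 counts. Slc2a1 was lower in KPG1 in all 5 tumors without overlap, with a difference in mean log2 CPM (read counts scaled to library size) of -1.01 and a two-sided exact permutation p of 0.00794, which no arrangement of 5 against 5 tumors can undercut. Its adjusted p in the limma fit over all genes was 0.0675. Mir1957a overlaps this locus on the same strand. The summed expression of 8 epithelial markers was 19360 to 64610 CPM per library, whereas all 39 leukocyte members together came to 190.1 to 433.6 CPM. In the latter sum KP 3 was the highest library and KPG1 5 the lowest. An earlier result of these data had already set KP 3 apart in immune genes. Results are therefore also given without KP 3 where it changes a value.

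The stretches upstream of a few members are shown because members of a class can share binding motifs of lineage factors. They run in the direction of the gene and come from RefSeq promoters on build GRCm38.p6. Each ends at the annotated gene start, except that of C1qb, which ends at a RefSeq start slightly upstream of it. S100a8 and S100a9 are the members whose groups did not overlap, Ngp is a further granule gene of neutrophils, and C1qb stands for the macrophage class. Capitals mark matches to the PU.1 box GAGGAA or to the C/EBP site TTGCNNAA, read on both strands, so that the box also appears as TTCCTC. The S100a8 stretch covers chr3:90668821-90668977 on the plus strand, that of S100a9 chr3:90695722-90695971 on the minus strand, that of Ngp chr9:110419558-110419746 on the plus strand and that of C1qb chr4:136886201-136886450 on the minus strand.
S100a8: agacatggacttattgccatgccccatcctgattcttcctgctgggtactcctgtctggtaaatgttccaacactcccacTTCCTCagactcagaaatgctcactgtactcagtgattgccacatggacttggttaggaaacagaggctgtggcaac
S100a9: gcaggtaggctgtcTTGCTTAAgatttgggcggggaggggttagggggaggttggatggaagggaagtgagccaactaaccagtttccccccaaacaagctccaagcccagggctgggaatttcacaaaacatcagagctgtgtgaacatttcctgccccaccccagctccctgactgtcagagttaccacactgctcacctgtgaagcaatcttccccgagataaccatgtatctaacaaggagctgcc
Ngp: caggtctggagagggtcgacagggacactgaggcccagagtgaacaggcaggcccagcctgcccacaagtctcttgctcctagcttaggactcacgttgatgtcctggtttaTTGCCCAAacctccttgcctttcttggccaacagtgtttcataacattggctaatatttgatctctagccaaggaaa
C1qb: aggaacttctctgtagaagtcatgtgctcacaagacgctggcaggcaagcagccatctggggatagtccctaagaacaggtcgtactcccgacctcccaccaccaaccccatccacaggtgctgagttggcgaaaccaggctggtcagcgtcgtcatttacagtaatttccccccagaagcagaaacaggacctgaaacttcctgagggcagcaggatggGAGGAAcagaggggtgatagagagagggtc

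Each of these windows held a match to only 1 of the motifs, a PU.1 box in S100a8 and C1qb and a C/EBP site in S100a9 and Ngp. RefSeq promoters of 300 bases around the start were listed for 28 of the 39 members. At least 1 PU.1 box was found in 21 of these 28 members (75.0%) and in 31.3% of 27025 genes of the table. A C/EBP site was found in 7 members (25.0%) and in 12.2% of all genes. Of 8 neutrophil members 5 held the box and 4 held the C/EBP site, and of 7 macrophage members 6 held the box and 1 the C/EBP site. The box was also found in 4 of 4 T cell members, 1 of 1 B cell member and 2 of 4 NK and cytotoxic members. It was in 2 of 2 genes of all leukocytes and in 1 of 2 shared myeloid members. The box was thus not particular to the myeloid classes. A match of letters is a description of the sequence and no measure of binding.

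The members with the highest levels were mostly genes listed as myeloid. Which cells of the fraction made this RNA was not tested. On the scale of TPM (scaled to library size and corrected for gene length), Cd14, a co-receptor for bacterial lipopolysaccharide, had the highest median over the 10 libraries at 213.5. It was followed by Chil3, a secreted chitinase-like protein of alveolar macrophages, at 63.1, by the lysosomal protein Cd68 at 37.2 and by Fcgr3, a low-affinity receptor for antibody, at 36.4. The adaptor Tyrobp stood at 27.9 TPM, and the complement genes C1qa and C1qb were at 19.6 and 18.3. S100a9 and S100a8 had medians of 11.2 and 5.51 TPM, and Ptprc itself was at 1.26. The order of these genes depends on the length used, which was 18313 bases for Ptprc and 694 for S100a8. In CPM, without a correction for length, the Ptprc medians were 6.69 in KP and 6.49 in KPG1. Those of S100a8 were 2.70 and 0.750 CPM. Among lymphoid genes Cd79b, a signaling subunit of the B cell receptor, was the exception at 22.5 TPM, since its partner Cd79a was at 0.977 and the T cell receptor subunit Cd3e at 0.103.

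**Figure D1:**
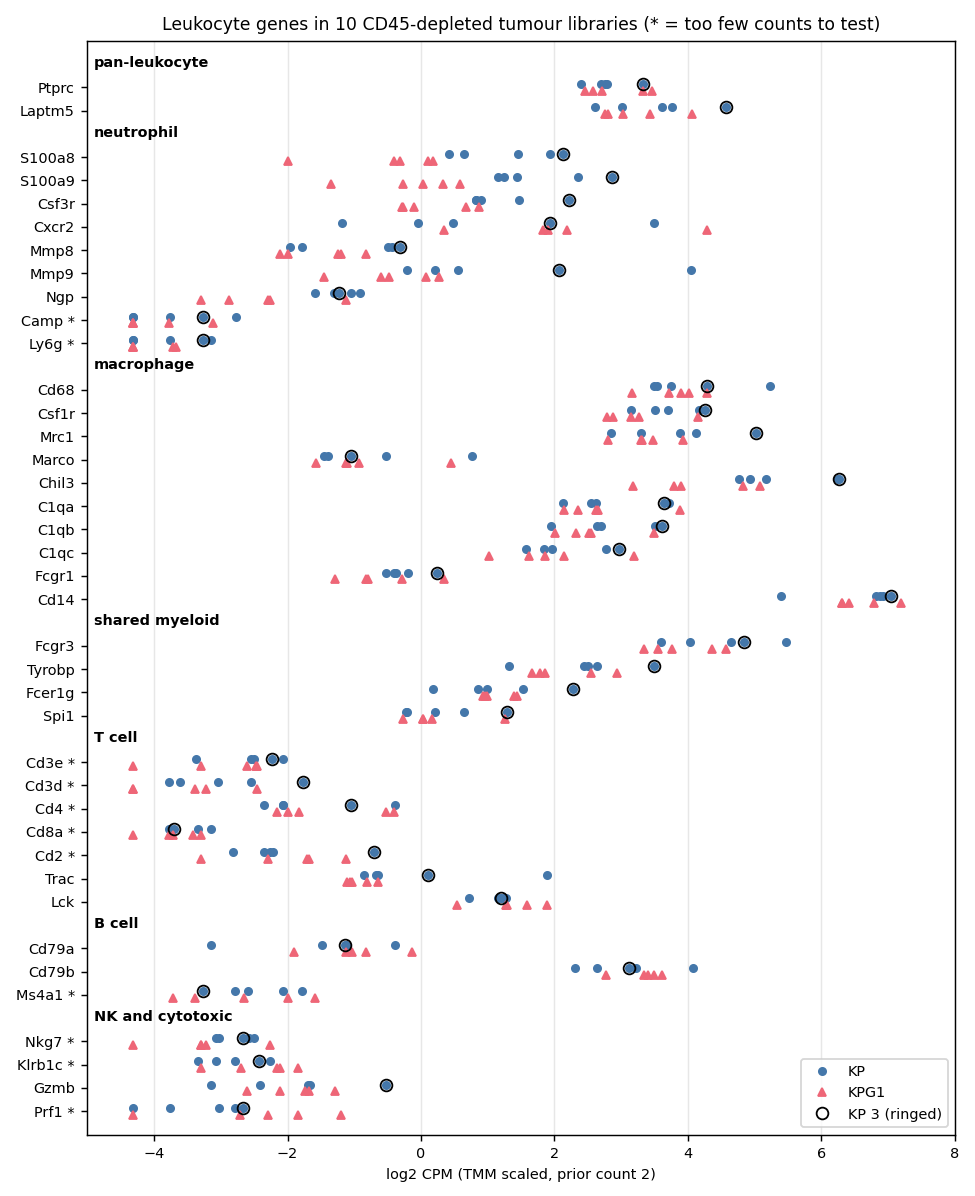
Log2 CPM of each of the 39 members on the horizontal axis, with 1 point per library, circles for the 5 KP tumors, triangles for the 5 KPG1 tumors and a ring around KP 3. The circles and triangles separate for S100a8 and S100a9 and overlap for every other member, and Cd14 lies farthest to the right.

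The question of the comparison was how expression differs between tumors with and without Glut1, here for the leukocyte genes left in the fraction. In the limma fit over 16216 genes 0 of the 28 tested members passed an adjusted p of 0.05, against 0.173% of all genes tested (0.111% lower and 0.0617% higher in KPG1). The edgeR quasi-likelihood test also called 0 members, and DESeq2 called 3, namely S100a8, S100a9 and Mmp9. Over all genes DESeq2 called far more than limma, 488 lower and 136 higher of 18630 genes with an adjusted p. Without adjustment 6 members were lower in KPG1 with a p under 0.05, where the background was 6.31%, and 0 were higher, where it was 5.26%. These 6 were S100a8, S100a9, Csf3r, Ngp and Mmp9 of the neutrophil class and Chil3 of the macrophage class. Ngp was kept by the filter on low counts through its KP libraries, so its direction is no separate support. The groups did not overlap for 2 members, both lower in KPG1 (background 1.76% lower and 1.05% higher). By sign, 22 of 28 tested members were lower in KPG1, beside 47.3% of all genes below 0. The median log2 fold change of the members was -0.27, beside a median of 0.02 over all genes. The members were chosen with earlier results of these data known, so these counts describe the list and are no test of it. In RNA from a whole cell fraction fewer cells of a type cannot be told apart from less RNA per cell.

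**Figure D2:**
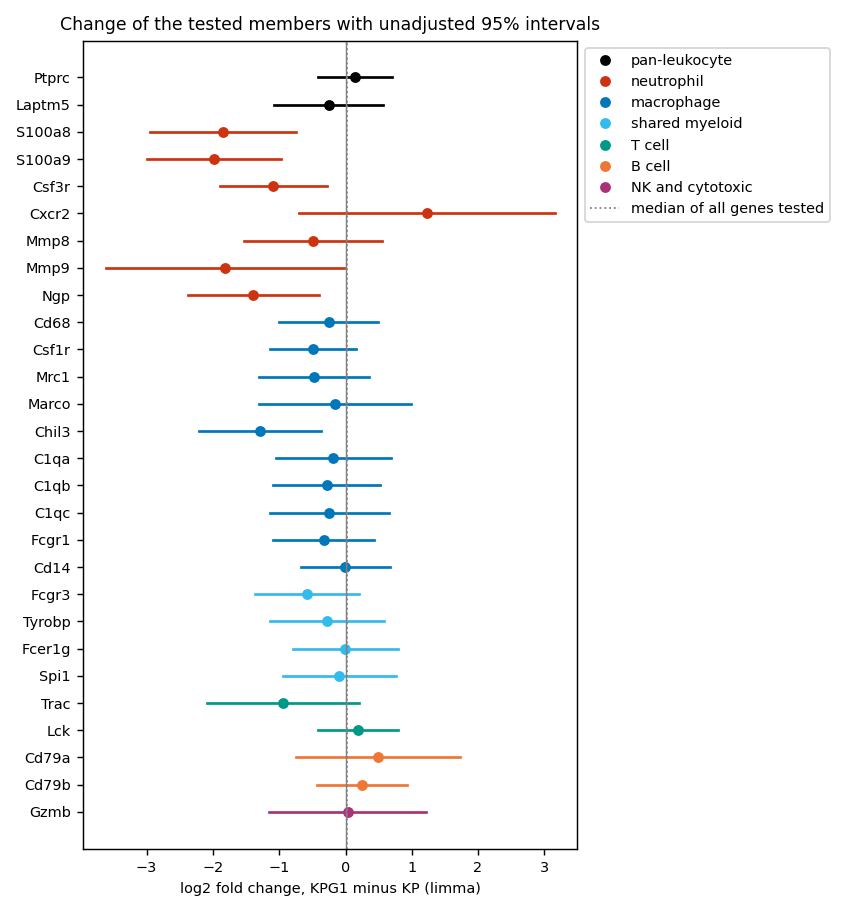
Log2 fold change of the 28 tested members, KPG1 minus KP, with points for the limma estimate, bars for its unadjusted 95% interval and colors for the class. Only the bars of S100a8, S100a9, Csf3r, Mmp9, Ngp and Chil3 lie wholly below 0, and no bar lies wholly above it.

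Among the genes of all leukocytes, neither separated the groups. Ptprc lies at chr1:138062861-138175708, where A130071D04Rik overlaps it on the same strand. Ptprc had log2 CPM values of 2.70, 2.75, 3.33, 2.79 and 2.40 in KP 1 to KP 5 and of 3.32, 2.58, 3.46, 2.71 and 2.45 in KPG1 1 to KPG1 5. The highest tumor was KPG1 3 and the lowest was KP 5, and the ranges lay over each other. Its log2 fold change was 0.14 (SE 0.25, 95% interval -0.42 to 0.70, limma adjusted p 0.869), and the exact permutation p was 0.722. Laptm5, a lysosomal protein of blood cells, had log2 CPM values of 3.76, 3.61, 4.57, 3.01 and 2.61 in KP and of 3.43, 2.76, 4.07, 3.03 and 2.80 in KPG1. In each group the third tumor was the highest. The log2 fold change of Laptm5 was -0.25 (SE 0.37, limma adjusted p 0.836), and without KP 3 it was 0.00. The residual CD45 transcript thus differed between groups by less than the spread between tumors.

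Neutrophil members gave the widest separation. S100a8 and S100a9, which pair as calprotectin, were lower in every KPG1 tumor than in any KP tumor, while Cxcr2 had the opposite sign. Of 7 tested members of the class 6 were lower by sign and 5 of them had an unadjusted p under 0.05, and 0 passed after adjustment. The median log2 fold change of the class was -1.39, which is the value of Ngp, a gene near the filter on low counts.

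S100a8 lies on chromosome 3 at chr3:90668978-90670035 and was covered by 63, 86, 160, 160 and 56 counts in KP 1 to KP 5. KPG1 1 to KPG1 5 held 47, 29, 31, 7 and 42 counts. On the log2 CPM scale this corresponded to 0.65, 1.46, 2.13, 1.94 and 0.42 in KP and to 0.11, -0.32, -0.41, -1.999 and 0.17 in KPG1. KPG1 4 was the lowest tumor, and the closest tumors of the groups were KP 5 and KPG1 5. The log2 fold change was -1.84 (SE 0.50, 95% interval -2.94 to -0.75, limma p 0.00342, adjusted p 0.205), and the exact permutation p was 0.00794, the smallest possible, among 8 single genes tested in this way. Without KP 3 the log2 fold change was -1.65 (limma p 0.00925).

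S100a9 lies on the same chromosome at chr3:90692632-90695721 on the opposite strand. Tumors stood at log2 CPM values of 1.24, 1.15, 2.86, 2.36 and 1.44 for KP and 0.58, -0.28, 0.04, -1.35 and 0.33 in KPG1. KP 3 was again the highest tumor and KPG1 4 again the lowest, and the groups did not overlap. The log2 fold change was -1.98 (SE 0.46, 95% interval -2.99 to -0.97, limma p 0.00115, adjusted p 0.142), and without KP 3 it was -1.73 (limma p 0.00224). The unadjusted exact permutation p was again 0.00794. S100a9 was tested in this way in addition to the planned genes. Groups that do not overlap can only give this smallest value, so it is no separate support.

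Both genes passed the threshold in DESeq2, with adjusted p-values of 0.00487 for S100a8 and 0.000673 for S100a9, and in limma with a weight per library, at 0.0405 and 0.0382. Over all genes DESeq2 called 488 lower of 18630, and the weighted fit called 177 lower of 16216. With the sample number as a covariate the log2 fold changes were -0.93 (limma adjusted p 0.588) and -1.17 (limma adjusted p 0.501). The sample number is a running number in the titles with no stated meaning, and it was 6, 11, 12, 15 and 16 in the KP tumors and 1, 4, 5, 9 and 10 in the KPG1 tumors.

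The remaining neutrophil members were less uniform, and those other than Cxcr2 were chosen for description after their values had been seen. Csf3r, the receptor for the growth factor that drives granulocyte production, ran from 0.83 to 2.21 log2 CPM in KP and from -0.28 to 0.86 in KPG1, and its log2 fold change came to -1.09 (SE 0.37, limma adjusted p 0.294). Ngp, a protein of neutrophil granules, was covered by 9 to 21 counts in KP and by 2 to 16 counts in KPG1 and its log2 fold change came to -1.39 (SE 0.45, limma adjusted p 0.272). Both ranges overlapped between groups. Of the KPG1 tumors only KPG1 5 held more than 7 counts of Ngp, so the filter on low counts kept this gene through KP.

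Mmp9, the gelatinase of neutrophil granules that other cells also secrete, was at 4.05 log2 CPM in KP 1, whereas the other KP tumors were at -0.21, 2.07, 0.55 and 0.21. KPG1 tumors were at 0.27, 0.08, -0.60, -1.46 and -0.48. For Mmp9 the log2 fold change was -1.82 (SE 0.82, limma adjusted p 0.425), was -1.12 without KP 1, and passed the threshold in DESeq2 (adjusted p 0.0134). The collagenase Mmp8 had at most 28 counts in any library and a log2 fold change of -0.49 (limma adjusted p 0.728).

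Cxcr2, the receptor for neutrophil-attracting chemokines, ran against the class. In log2 CPM it stood at -0.05, 3.49, 1.94, 0.48 and -1.18 in KP and 0.35, 2.19, 1.82, 4.29 and 1.91 in KPG1. The highest tumor was KPG1 4, which was the lowest for S100a8 and S100a9. Between groups it differed by 1.23 on the log2 scale (SE 0.88, limma adjusted p 0.625), by 0.72 without KPG1 4 and by 1.84 without KP 2. The granule peptide gene Camp and the surface antigen gene Ly6g had 7 and 5 counts over the KP libraries and 4 and 2 counts over the KPG1 libraries, and each was at 0 in 5 of 10 libraries. A value of 0 in a library allows up to 3 counts, or 0.0606 to 0.0925 CPM depending on depth, which covers counting error only. A difference in these defining granule and surface markers was not detectable at this depth.

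All 10 macrophage members were tested and all were lower in KPG1 by sign, with a median log2 fold change of -0.27. Only Chil3 had an unadjusted p under 0.05, and reads of its close paralog Chil4 could not be told apart where the sequences are the same. Chil3 had log2 CPM values of 4.93, 5.16, 6.26, 6.25 and 4.77 in KP and of 4.83, 3.17, 5.09, 3.90 and 3.79 in KPG1. KP 3 and KP 4 stood above all others, and the remaining KP tumors were within or just above the upper part of the KPG1 range. The log2 fold change was -1.29 (SE 0.42, limma p 0.00997, adjusted p 0.272), and it was -1.11 without KP 3 and -0.50 with the sample number as a covariate.

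The complement genes C1qa, C1qb and C1qc lie next to each other on chromosome 4 and encode the chains of C1q. Their log2 fold changes were -0.19, -0.29 and -0.25 with limma adjusted p-values of 0.890, 0.807 and 0.858. C1qa was at 3.71, 2.63, 3.64, 2.55 and 2.13 log2 CPM in KP and at 2.36, 2.65, 3.88, 2.62 and 2.14 in KPG1 (exact permutation p 0.738). KP 1, KP 3 and KPG1 3 stood above the other 7 tumors for all of these chains. These genes therefore separated tumors within groups more than they separated the groups.

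Csf1r, the receptor that maintains macrophages, had log2 CPM values of 4.17, 3.51, 4.26, 3.71 and 3.15 in KP and of 3.27, 2.79, 4.16, 3.15 and 2.88 in KPG1. KPG1 3 alone reached the upper KP values. Its log2 fold change came to -0.49 (SE 0.29, limma adjusted p 0.547). Cd14 had log2 CPM values of 5.39, 6.82, 7.04, 6.88 and 6.92 in KP and of 7.19, 6.79, 6.31, 6.32 and 6.41 in KPG1. KP 1 was the lowest tumor of all. Its log2 fold change was -0.01 (SE 0.31, 95% interval -0.68 to 0.67, limma adjusted p 0.997), and the sign was kept in 10 of 19 alternatives. The mannose receptor Mrc1, the scavenger receptor Marco, the lysosomal Cd68 and the high-affinity antibody receptor Fcgr1 had log2 fold changes between -0.47 and -0.16, with limma adjusted p-values of 0.662 to 0.932.

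Of the genes shared by myeloid cells 4 of 4 were tested and all had a negative sign, with a median log2 fold change of -0.19 and no unadjusted p under 0.05. Fcgr3 had log2 CPM values of 4.64, 5.46, 4.84, 4.03 and 3.59 in KP and of 3.35, 4.57, 3.77, 4.36 and 3.56 in KPG1. KP 2 was the highest and KPG1 1 the lowest. Fcgr3 had its log2 fold change at -0.58 (SE 0.36, limma adjusted p 0.557). Tyrobp, which passes on signals from activating receptors, was at 2.51, 2.63, 3.49, 2.45 and 1.31 log2 CPM in KP and at 2.55, 1.67, 2.94, 1.86 and 1.78 in KPG1. KP held both the highest and the lowest tumor. The log2 fold change of Tyrobp was -0.28 (SE 0.40, limma adjusted p 0.826) and -0.04 without KP 3. The antibody receptor chain Fcer1g and the myeloid transcription factor Spi1, which encodes PU.1, had log2 fold changes of -0.0047 and -0.10. Fcer1g kept its sign in 10 of 18 alternatives.

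Of the 14 lymphoid members only 5 could be tested, and the other 9 had few counts. Among T cell genes Cd3e, Cd3d, Cd4, Cd8a and Cd2 stayed below the filter, with 25, 19, 67, 7 and 43 counts over the KP libraries and 18, 10, 80, 6 and 47 over the KPG1 libraries. The exact permutation p of Cd3e was 0.286. Trac is the constant region of the T cell receptor alpha chain. It was covered by 152, 16, 38, 25 and 25 counts in KP and by 20, 16, 23, 15 and 23 in KPG1. Its log2 fold change was -0.95 (SE 0.52, limma adjusted p 0.516) and -0.44 without KP 1. The kinase Lck, which acts next to that receptor, had log2 CPM values of 1.24, 0.73, 1.20, 1.27 and 1.16 in KP and of 0.54, 1.58, 1.895, 1.28 and 1.29 in KPG1. KPG1 held its highest and its lowest tumor, and the log2 fold change was 0.19 (SE 0.28, limma adjusted p 0.836).

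The B cell receptor subunits did not share a profile. Cd79b had log2 CPM values of 2.31, 3.22, 3.11, 2.64 and 4.07 in KP and of 3.49, 3.61, 2.78, 3.40 and 3.35 in KPG1, with its log2 fold change at 0.25 (SE 0.31, limma adjusted p 0.795). KP 5 was the highest and KP 1 the lowest. Cd79a was covered by 17, 2, 15, 13 and 31 counts in KP and by 10, 17, 38, 18 and 16 in KPG1, with its log2 fold change at 0.49 (SE 0.56, limma adjusted p 0.777, exact permutation p 0.468). Here KP 2 was the lowest and KPG1 3 the highest. Ms4a1, which encodes the B cell antigen CD20, had 27 counts over the KP libraries and 26 over the KPG1 libraries.

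Of the NK and cytotoxic genes only the granule protease Gzmb was tested, at 11, 2, 24, 11 and 6 counts in KP and 12, 7, 11, 4 and 14 in KPG1. Its log2 fold change was 0.03 (SE 0.54, limma adjusted p 0.988), and KP 3 was the highest tumor. The NK receptor gene Klrb1c was at 2, 5, 5, 4 and 3 counts in KP and at 8, 4, 8, 8 and 2 in KPG1. Nkg7, a protein of cytotoxic granules, was at 19 counts in all over KP and 13 over KPG1 (exact permutation p 0.198), and the pore-forming protein gene Prf1 was at 11 and 36. For Nkg7 the difference in mean log2 CPM was -0.51. Without KPG1 3, which held 7 counts against at most 2 in the other KPG1 tumors, it was -0.77. KPG1 3 stood above every KP tumor, and without it the groups did not overlap. The exact permutation p could then only be the smallest possible, 0.00794, so it is no support. Klrb1c, Nkg7 and Prf1 had at most 17 counts in any library.

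Summed by class, the neutrophil members had the lowest ratio between groups. Their median was 19.7 CPM in KP (7.85 to 25.3) and 8.07 CPM in KPG1 (7.21 to 21.5), a ratio of 0.410. KP 1 owed 69.2% of its sum to Mmp9 and KPG1 4 owed 91.0% to Cxcr2. Without these genes the medians were 7.64 CPM (6.36 to 17.4) and 3.13 CPM (1.63 to 4.83), a ratio of 0.409 with no overlap, and this class was trimmed after the values had been seen. S100a8 and S100a9 together had a median of 4.87 CPM (3.84 to 11.5) in KP and of 1.68 CPM (0.543 to 2.47) in KPG1.

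The other classes overlapped between groups. Macrophage members had medians of 213.7 CPM in KP and 172.1 CPM in KPG1, and without Cd14 and Chil3, which held most of this sum, 65.7 CPM and 50.0 CPM. The C1q chains had medians of 16.2 CPM and 14.5 CPM. The medians of the shared myeloid, T cell, B cell and NK classes changed by ratios of 0.749, 0.949, 1.24 and 1.29. All 39 members together had medians of 302.5 CPM (243.9 to 433.6) in KP and 239.4 CPM (190.1 to 283.2) in KPG1, a ratio of 0.791 and of 0.835 without KP 3. The fibroblast sum, over 6 markers, had the opposite order, with medians of 117.9 CPM and 213.4 CPM, and the endothelial sum had medians of 419.2 CPM and 516.8 CPM. The part of these other cell types in the leukocyte values was not tested.

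**Figure D3:**
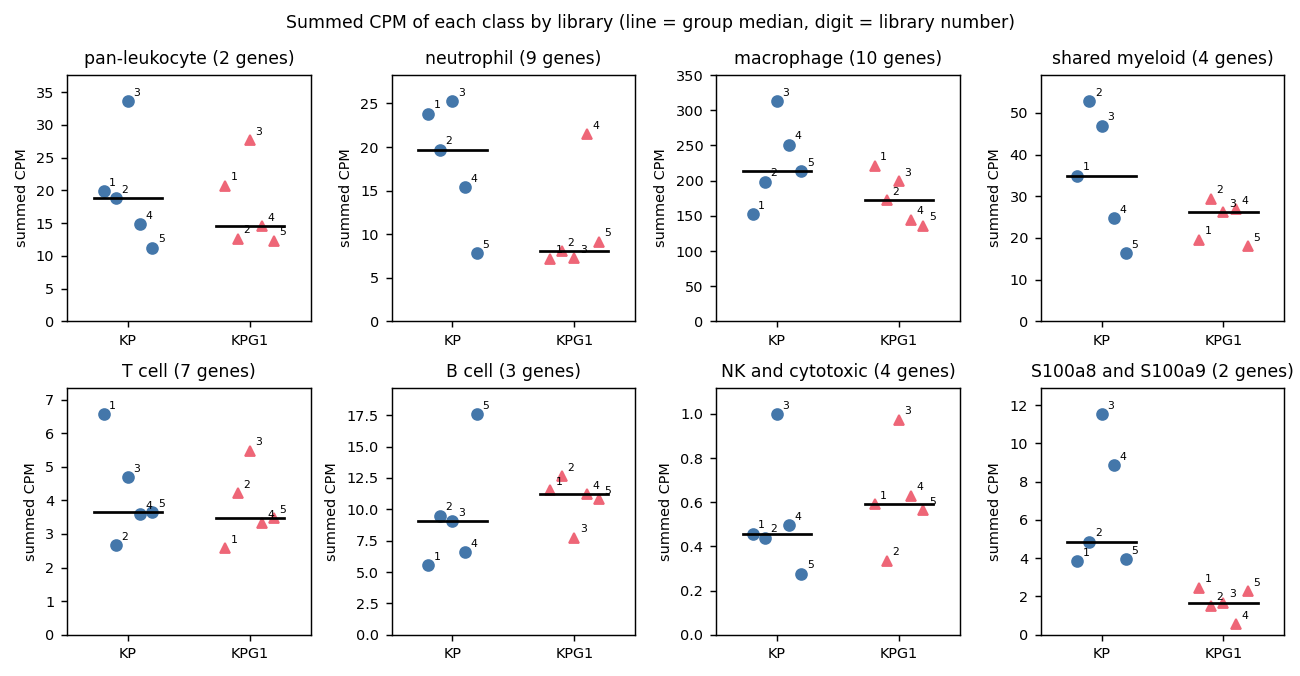
Summed CPM of each class on a linear axis from 0, with 1 point per library, a digit for the library number and a line for the group median. S100a8 and S100a9 separate the groups, while KP 3 and KPG1 3 are the highest tumors of their groups for the pan-leukocyte and the NK genes.

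S100a8 was also set against Ptprc in the same library, a measure chosen after the data had been seen. The log2 ratio of S100a8 to Ptprc was -2.05, -1.29, -1.20, -0.85 and -1.98 in KP and -3.22, -2.90, -3.87, -4.71 and -2.28 in KPG1. No KPG1 tumor reached the lowest KP tumor. The difference was -1.92, and without KP 3 it was -1.85. S100a8 alone already separated the groups while Ptprc differed by 0.11, so the ratio restates the S100a8 values and is no separate support. Against C1qa the difference in log2 ratio was -1.61, the groups overlapped, and without KP 3 it was -1.58.

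The tumors of a group differed among themselves in leukocyte gene expression. KP 3 was the highest of 10 libraries for 13 of the 28 tested members, and KPG1 3 for 6. Within their own groups these tumors were the highest for 17 and 14 members. The same counts were not made over all genes tested, and KP 3 had been set apart beforehand in immune genes. These counts therefore describe the members only. The SD of log2 CPM between tumors of a group exceeded the median SD of genes of like mean for 22 of 28 members in KP and for 24 of 28 in KPG1. It was larger in KP than in KPG1 for 71.4% of members and for 73.5% of all genes tested.

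Tyrobp and Laptm5 had the highest correlations with Ptprc. Across the 10 libraries the correlation of log2 CPM with Ptprc was r = 0.834 for Tyrobp (permutation p 0.00221, adjusted over 27 members 0.0597), with a Spearman rho of 0.891 (permutation p 0.00102, adjusted 0.0275). Leaving out KPG1 3 and KP 3, the tumors farthest from the median of Ptprc, gave r = 0.712, and deviations from the group means gave r = 0.915 (permutation p 0.00097, adjusted 0.0149). Laptm5 had r = 0.799 (permutation p 0.00557, adjusted 0.0752, rho 0.794 with permutation p 0.00869), which was 0.578 without these tumors. For Spi1 r was 0.763 (permutation p 0.0124, adjusted 0.0837, rho 0.721 with permutation p 0.0225), and it was 0.327 without them. For deviations from the group means r of Spi1 was 0.791. Leaving out the tumors farthest from the median of Ptprc narrows its range, which can itself lower r. After adjustment 0 of 27 Pearson correlations and 1 of 27 rank correlations, that of Tyrobp, had a p under 0.05, and without KP 3 the rank correlation of Tyrobp had an adjusted permutation p of 0.124. For deviations from the group means 8 of 27 Pearson correlations did, those of Laptm5, Csf1r, Chil3, C1qb, C1qc, Tyrobp, Fcer1g and Spi1, and without KP 3 this number was 0, with 0.0616 as the lowest adjusted permutation p. Of the shared myeloid class Fcgr3 was the exception, with r = -0.06 (permutation p 0.877, adjusted 0.980, rho 0.139 with permutation p 0.705).

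Macrophage members divided in this respect. C1qc and C1qb had r = 0.715 (permutation p 0.0179, adjusted 0.0954, rho 0.758 with permutation p 0.0151) and r = 0.700 (permutation p 0.0212, adjusted 0.0954, rho 0.758 with permutation p 0.0145), which were 0.329 and 0.375 without KP 3 and KPG1 3. For Cd14 r was 0.207 (permutation p 0.584, adjusted 0.956, rho 0.164 with permutation p 0.656) and for Cd68 it was -0.01 (permutation p 0.978, adjusted 0.980, rho 0.164 with permutation p 0.654). Csf1r had r = 0.630 (permutation p 0.055, adjusted 0.173, rho 0.709 with permutation p 0.0273) and 0.821 for deviations from the group means. Chil3 had r = 0.502 (permutation p 0.141, adjusted 0.381, rho 0.709 with permutation p 0.026) and 0.861 for deviations. Cd14 and Chil3, the members with the highest medians in TPM, thus had deviations from the group means that correlated with those of Ptprc at 0.211 and 0.861.

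**Figure D4:**
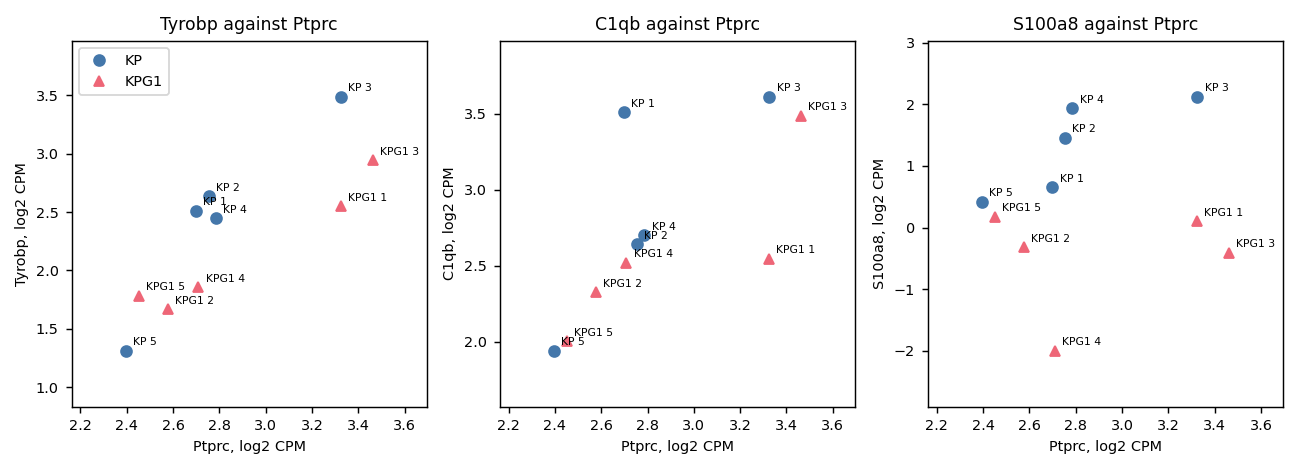
Log2 CPM of Tyrobp, C1qb and S100a8 against that of Ptprc in 5 KP tumors (circles) and 5 KPG1 tumors (triangles), each labelled. Tyrobp rises with Ptprc in both groups, whereas at a similar Ptprc level the S100a8 values of KPG1 lie below those of KP.

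Over all 10 libraries together, neutrophil and lymphoid members showed weak relations to Ptprc. Within KP alone, r of the neutrophil members ran from -0.365 for Ngp to 0.900 for Csf3r, with S100a8 at 0.823. Within KPG1 it ran from -0.487 for Cxcr2 to 0.340 for S100a9, with S100a8 at 0.145. Lymphoid members ran from -0.338 for Cd79b to 0.734 for Gzmb within KP, and from -0.598 to 0.123 for the same genes within KPG1. For S100a8 r was 0.134 (permutation p 0.715, adjusted 0.965, rho 0.103 with permutation p 0.786) over all tumors and 0.407 for deviations from the group means, and it was -0.10 without KP 3. Cxcr2 had r = 0.077 (permutation p 0.834, adjusted 0.980, rho 0.139 with permutation p 0.709) and Cd79b had r = -0.33 (permutation p 0.351, adjusted 0.677, rho -0.49 with permutation p 0.153). Among the 10 pairs formed by Ptprc, S100a8, C1qa, Cd3e and Cd79a none passed after adjustment. The strongest was S100a8 with Cd3e at r = 0.764 (permutation p 0.00994, adjusted 0.0994, rho 0.600 with permutation p 0.0726), which was 0.394 without KPG1 4 and KP 3 and rests on at most 8 counts of Cd3e per library.

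**Figure D5:**
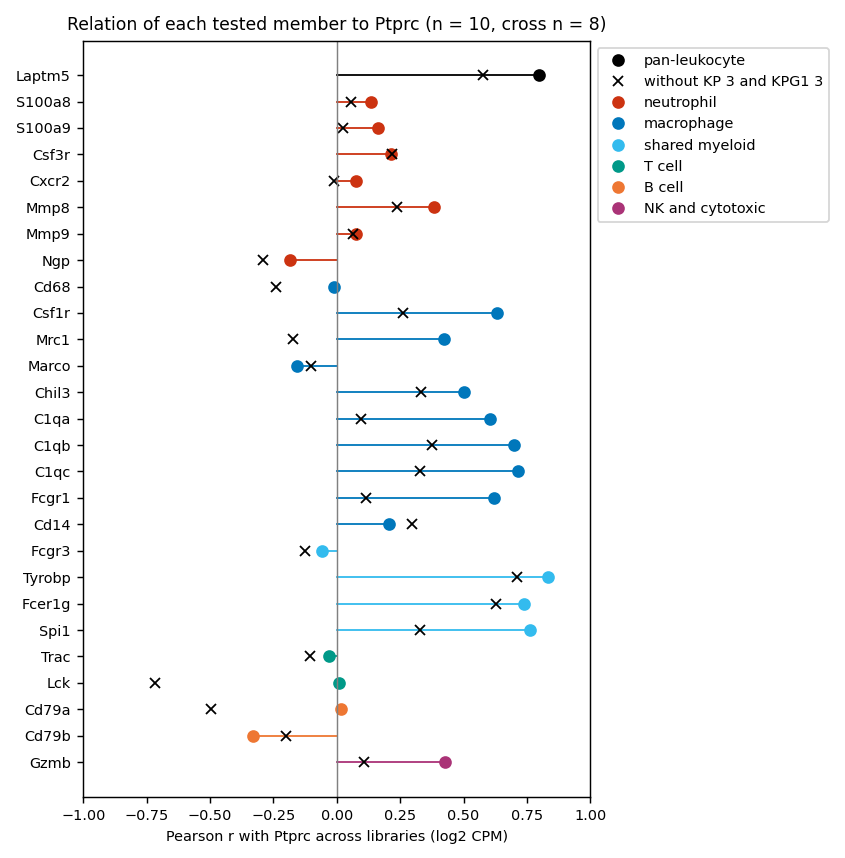
Pearson r of each of 27 tested members with Ptprc across the 10 libraries on the horizontal axis, colored by class, with crosses for r without KP 3 and KPG1 3. Tyrobp, Fcer1g and Laptm5 stay above 0.5 without these tumors, and the neutrophil members lie near 0 or below 0.5.

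Further leukocyte genes outside the 39 members were read from the same fit, and 0 of them passed the adjusted threshold in limma. Of 47 tested genes in these lists 3 were lower with an unadjusted p under 0.05, Itgam, Trbc1 and Klra4, beside 6.31% of all genes, and 1 was higher, Hdc, beside 5.26%. The share of lower genes was close to that over all genes tested and the share of higher genes was below it. Of 12 other neutrophil genes 8 were tested, 3 higher and 5 lower by sign, with a median log2 fold change of -0.22. Itgam, the integrin chain CD11b of neutrophils and macrophages, was lower in every KPG1 tumor, at 1.36 to 2.55 log2 CPM against 2.63 to 4.05 in KP. Its log2 fold change was -1.04 (SE 0.33, limma adjusted p 0.263, DESeq2 adjusted p 0.0274). Hdc, the enzyme that makes histamine, belongs to the same list and had a positive log2 fold change, 1.11 (SE 0.33, limma adjusted p 0.240). This list thus held genes of either sign.

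For 12 other genes of all leukocytes the median log2 fold change was -0.20 with 9 lower by sign, and for 11 tested macrophage genes it was -0.19 with 7 lower. Lyz2, the lysozyme that alveolar type 2 cells also make, was at 8.69 to 11.8 log2 CPM in KP and 10.98 to 12.6 in KPG1. Of the T cell list 6 of 14 genes were tested, and Trbc1, a constant region of the T cell receptor beta chain, had 272 counts over KP and 50 over KPG1, with a log2 fold change of -2.13 (limma adjusted p 0.280, DESeq2 adjusted p 0.00525). Its near-identical copy Trbc2 had 223 and 141 counts, and reads could be split between the copies. Of 10 other NK genes 2 were tested, and the receptor gene Klra4 had 690 and 89 counts, with a log2 fold change of -2.84 (limma adjusted p 0.206, DESeq2 adjusted p 0.000673). Klra4 has close paralogs that could share its reads, and the filter on low counts kept it through its KP counts, so its value is uncertain. B and plasma cell genes, dendritic cell genes and mast cell and basophil genes had medians of 0.01, 0.24 and -0.77 over 4, 3 and 1 tested genes.

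Among 14 leukocyte attractants and growth factors 12 were tested. Cxcl1, a ligand of Cxcr2, was at 7.62, 6.40, 6.55, 5.45 and 5.25 log2 CPM in KP and at 5.16, 4.99, 4.20, 4.44 and 6.01 in KPG1. KPG1 5 reached into the KP range and the other KPG1 tumors were below it. On the log2 scale the groups differed by -1.29 (SE 0.46, limma adjusted p 0.312). Cxcl15, a chemokine of lung epithelium, was higher in every KPG1 tumor, at 11.6 to 12.3 log2 CPM against 9.52 to 11.6 in KP (log2 fold change 1.16, SE 0.35, limma adjusted p 0.243). The list had a median of -0.21, with 7 genes lower and 5 higher by sign.

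Lists of other cell types had median log2 fold changes of 0.02 for epithelial, 0.33 for endothelial, 0.49 for fibroblast and 0.03 for erythroid and platelet genes. All 6 endothelial and all 6 fibroblast genes were higher in KPG1 by sign, and 0 passed after adjustment in limma, with Dcn alone at an unadjusted p under 0.05 (limma p 0.0366). In the epithelial list 4 genes were higher and 4 lower by sign. Sftpc, surfactant protein C, had the largest difference, 1.22 on the log2 scale (SE 0.40, limma p 0.0101, adjusted p 0.272), and was named after its values had been seen, with overlapping groups. Krt18 and Krt8 were lower in every KPG1 tumor, with log2 fold changes of -0.87 and -0.67 (limma adjusted p 0.0501 and 0.0699).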

How the data were processed

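Gene expression was measured in the CD45-negative fraction of 5 KP and 5 KPG1 tumors. The deposited values are whole-number read counts per Ensembl gene, not normalized, which the authors made from stranded mRNA libraries. Their processing notes name bcl2fastq 2.17, cutadapt 1.4.2, HISAT2, featureCounts 1.4.4, edgeR and build mm10. The methods of the study name a different cutadapt version. Every value of the joint table, 390170 in all, was the same in the file of its library. The log2 table deposited with it was made from the same counts and was not used. Totals were 32427029 to 49534284 counts per library. Reads carried no molecular identifiers.

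Genes were filtered with filterByExpr of edgeR 4.0.16, scaled by TMM and fitted with voom and limma 3.58.1 in R 4.3.3, genotype being the only term. Tests were two-sided, with Benjamini-Hochberg adjustment over all genes. Log2 CPM used a prior count of 2, so that differences in log2 CPM of low genes are understated. The limma fold changes did not use this prior count. TPM used union exon lengths of GENCODE M21, which holds 37693 of the 39017 genes. Single genes were tested by exact permutation, and correlations used 100000 resamples. Scripts were tested on simulated data.

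The members and gene lists were chosen with earlier results of these data known. Values in every library are given for Ptprc and for members with an adjusted p under 0.05. Per class they are given for the 2 with the highest mean and the 2 with the smallest p. C1qa and Mmp9 were added to these. From the other lists up to 2 genes with the smallest p could be named. DESeq2 1.42.0, edgeR's quasi-likelihood test, other scalings, filters and covariates, and leaving out each library were the alternatives. The replicate numbers did not pair the tumors, as deviations of same-numbered tumors correlated at -0.16 to 0.08. The engineered alleles that start the tumors are not reported here.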

Additional observations from a re-analysis of the deposited data

Results flagged for a closer look

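Within each group of 5 tumors, a tumor was singled out where its gap to the nearest other exceeded 0.71 of the range of the group. This was searched in 76 groups of values, of which chance would single out 3.8, and 5 were found. S100a8 was at -1.999 log2 CPM in KPG1 4, and at -0.41 to 0.17 in the other KPG1 tumors. In the same tumor the log2 of the summed CPM of the neutrophil class was 4.43, against 2.85 to 3.19 in the others, and Cxcr2 made up 91.0% of that sum. Cd14 was at 5.39 log2 CPM in KP 1 and at 6.82 to 7.04 in the other KP tumors. Spi1 was at 1.25 log2 CPM in KPG1 3 and at -0.28 to 0.16 in the rest of that group. Lck was at 0.73 log2 CPM in KP 2 and at 1.16 to 1.27 in the other KP tumors.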

How the results depend on the processing

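Of 507 fold changes of members recomputed under the alternatives 464 kept their direction and 43 turned, in 14 of the 28 members. The S100a8 and S100a9 fold changes stayed negative under each. Members lower in KPG1 and past the threshold numbered 3 in DESeq2 and 2 with a weight per library, against 0 in limma as reported, 0 in the edgeR quasi-likelihood test and 0 with any tumor left out. Without adjustment the 6 lower members became 1 with a mean of at least 20 CPM, which leaves few members, and 2 with the sample number as a covariate. That covariate also gave a median log2 fold change of -0.93 for the neutrophil class and of -0.17 for the B cell class, and the filter at 20 CPM gave -0.67 for the macrophage class. With a tumor left out the T cell median ran from -0.48 to 0.38 and the Ptprc difference from -0.027 to 0.246. The Nkg7 difference ran from -0.77 without KPG1 3, which stood above every KP tumor, to -0.25 without KPG1 1. Without KP 3 the correlation of Ptprc was -0.10 with S100a8 and -0.001 with Cd79a, and that of S100a8 with C1qa was -0.089. Where a value changed, the cause was not tested.

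Among all genes tested 10 were higher and 18 lower. The numbers were 136 and 488 in DESeq2, of 18630 genes with an adjusted p. They were 51 and 177 with a weight per library, 5 and 31 at 20 CPM, and 4 and 4 with the sample number. The edgeR quasi-likelihood test called 29 lower genes and the fit without a filter 31. With a tumor left out they ran from 3 to 71 higher and from 1 to 223 lower, the highest without KP 5. With the replicate number as a block, which does not pair these tumors, 4 were higher and 1 lower, and 0 members passed. The 11 members that were not tested had too few counts for the filter at the depth of these libraries.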
